A study of Mus musculus with 16 samples.

Results

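The liver tumours of MYC transgenic mice were compared with non-tumour liver taken from the same animals. The samples were those titled as MYC tumour or MYC non-tumour liver, 8 of the 16 arrays of the series, and the mouse number paired them into 4 pairs. The labels give the genotype of all 4 mice as MYC+/+, REG3A-/-, the background as C57BL/6J and the age as 18 months, and do not give the sex. The mice are of the WHC-MYC-TG line, in which control sequences of the woodchuck hepatitis virus drive the c-MYC oncogene in liver. The non-tumour liver therefore carried the same transgene as the tumours, and wild-type liver was not analysed here. Each mouse was killed, the liver was dissected into a tumour and a non-tumour piece, and both pieces were snap frozen. The other 8 arrays, from 4 MYC/REG3A mice that carry a REG3A transgene in addition, were used only where a difference between genotypes is given.

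MYC is a transcription factor that binds DNA together with its partner MAX, most tightly at the E-box motif. It is best known for raising the genes that build ribosomes, nucleotides and the cell cycle machinery, and it causes liver tumours when it is expressed without control. Adult hepatocytes rarely divide and devote much of their RNA to secreted proteins, cytochrome P450 enzymes, conjugating enzymes and transporters. Many of these genes follow the sex of the animal, through the rhythm of growth hormone, or the position of the cell between the portal and the central vein, through Wnt signals.

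Biotin-labelled cDNA from 200 ng of total RNA was hybridised to a 1-colour Affymetrix mouse array. Values are log2 levels after RMA (robust multi-array average, which equalises the distributions of the arrays). A change is the level in the tumour minus the level in the non-tumour liver of the same mouse on this scale, and n is 4 mice throughout. A change of 1 is a doubling relative to the other genes of the array, since a global gain or loss of RNA per cell is removed by the normalisation. Levels of different genes were not compared, because probes differ in brightness. Array means lay between 5.449 and 5.465. The lower quartile of an array, near which values carry little signal, lay at 3.71 to 3.76. SE is limma's standard error of a change. A gene rose or fell only where limma's adjusted p was under 0.05 over all genes tested. Probes of near-identical genes, such as the Cyp2, Cyp3, Mup, Sult and Ces families, can take up RNA of their relatives, so single members of those families are uncertain.

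Tumour and non-tumour liver were far apart. Of 13023 genes tested, 3604 (27.7%) changed. In the tumours 1948 genes (15%) rose and 1656 (12.7%) fell. Of these, 521 rose and 423 fell by at least 1, together 7.25% of the genes tested. For 3977 genes (30.5%) the 4 tumours and the 4 non-tumour livers did not overlap. The median change over all tested genes was -0.02, with quartiles of -0.27 and 0.28. The first principal component of the 8 arrays held 56% of the variance, with the non-tumour livers at -35.3 to -32.4 and the tumours at 26.6 to 39.4. Leaving out a mouse lowered the number of changed genes to 3167 without mouse 2, 2317 without mouse 1, 2315 without mouse 3 and 1716 without mouse 4.

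Measured levels of most hepatocyte markers were nearly as high in the tumours as in the non-tumour livers. The genes of this paragraph cannot test which piece was the tumour. Alb, the gene of serum albumin, was at 13.53, 13.49, 13.56 and 13.51 in the non-tumour livers of mice 1 to 4 and at 13.28, 13.46, 13.45 and 13.26 in their tumours. The highest values on these arrays were 13.55 to 13.65. Alb thus lay near the top of the scale, where a difference can be understated. Of 13 tested hepatocyte markers, 0 rose and 3 fell (23.1%, against 12.7% of all genes), with a median change of -0.16. The number that fell was 1 without mouse 1 or 2 and 0 without mouse 4. The fetal liver genes Afp and Gpc3, which many liver tumours re-express, changed by 0.14 (SE 0.189, limma adjusted p = 0.614) and 0.27 (SE 0.155, limma adjusted p = 0.234). Without mouse 1 the change of Afp was -0.0445. Xist, made from the inactive X chromosome, was at 11.72, 11.73, 11.81 and 11.77 in the non-tumour livers and at 12.07, 11.68, 11.41 and 11.60 in the tumours.

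The Myc row itself was lower in the tumours. It read 7.92, 7.78, 7.61 and 7.41 in the non-tumour livers of mice 1 to 4 and 7.09, 7.24, 7.17 and 6.84 in the tumours, so that the groups did not overlap. The fall was 0.59 (change -0.59, SE 0.115, limma adjusted p = 0.0128), and without mouse 4 the adjusted p was 0.0562. The labels do not say whether the probes of this row match the transgene's RNA, so it reads Myc transcripts that match the probes and not the transgene as such. Max, the obligate partner of MYC, rose by 0.70 (SE 0.12, limma adjusted p = 0.00873), from 8.86, 8.75, 8.80 and 8.79 to 9.73, 9.63, 9.31 and 9.34. These were the only 2 of 10 tested genes of the MYC network to pass the threshold. That is 10% in each direction, under the 15% and 12.7% of all genes. The antagonist Mxd1, which competes for MAX, changed by -0.10 (SE 0.113).

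The 12 genes of lowest p among those that rose by at least 1 included nucleolar, nucleotide and polyamine genes beside others of unrelated or little known function. Tmem45b, a membrane protein gene, went from 5.61, 5.73, 4.55 and 5.18 in non-tumour liver to 8.77, 8.89, 7.06 and 7.91 in tumours. Every pair rose, and the lowest tumour lay above the highest non-tumour liver (change 2.89, SE 0.148, limma adjusted p = 0.00048). Cdkn1a, which encodes the cell cycle inhibitor p21, went from 8.17, 7.89, 7.43 and 8.02 to 10.83, 10.34, 10.23 and 10.15. Its change of 2.51 (SE 0.139) sat beside a rise of the mitotic genes in the same tumours. Dctd, the deaminase that turns dCMP into dUMP for thymidylate synthesis, went from 5.41, 5.17, 5.55 and 5.10 to 8.71, 8.59, 7.83 and 7.90 (change 2.95, SE 0.202). Hspbap1, a heat shock protein partner, and Cdca7l, a MYC-interacting nuclear protein, rose by 2.68 (SE 0.143) and 2.58 (SE 0.167). The remaining rises were 2.42 for Lpcat4, an acyltransferase of phospholipid remodelling, 1.99 for Spa17, a sperm protein gene, and 1.62 for Abitram. The other 4, Taf1d, Nhp2, Uck2 and Srm, are described with their pathways.

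The 12 genes of lowest p among those that fell by at least 1 included 4 cytochrome P450 genes. Slc22a26, an organic anion transporter of female liver, stood at 11.12, 11.30, 11.55 and 11.53 in non-tumour liver and at 4.95, 5.44, 5.59 and 4.83 in tumours. The fall of 6.17 (change -6.17, SE 0.162, limma adjusted p = 7.14e-05) had the lowest p of all named genes. Acss3, a mitochondrial short-chain acyl-CoA synthetase, went from 7.64, 8.28, 7.41 and 7.52 to 4.21, 4.98, 4.84 and 4.21. Its change was -3.15 (SE 0.168), and the groups did not overlap. Adra1b, the alpha-1B adrenergic receptor through which catecholamines act on hepatocytes, went from 9.46, 9.31, 9.77 and 9.30 to 6.78, 7.24, 7.23 and 6.88 (change -2.43, SE 0.133). Cyp2d40, Pcp4l1 and Lrtm1 changed by -3.20, -2.61 and -2.53 (SE 0.156, 0.134 and 0.137). Reln, which stellate cells make, and Colec10, a lectin of the complement system, changed by -2.10 (SE 0.104) and -2.00 (SE 0.112). The other 4, Cyp2c69, Cyp3a16, Cyp3a44 and Sult2a1, are described with the sex-biased genes. In the plot of these 24 genes by array the filled and open symbols are separate in every line.

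**Figure D1:**
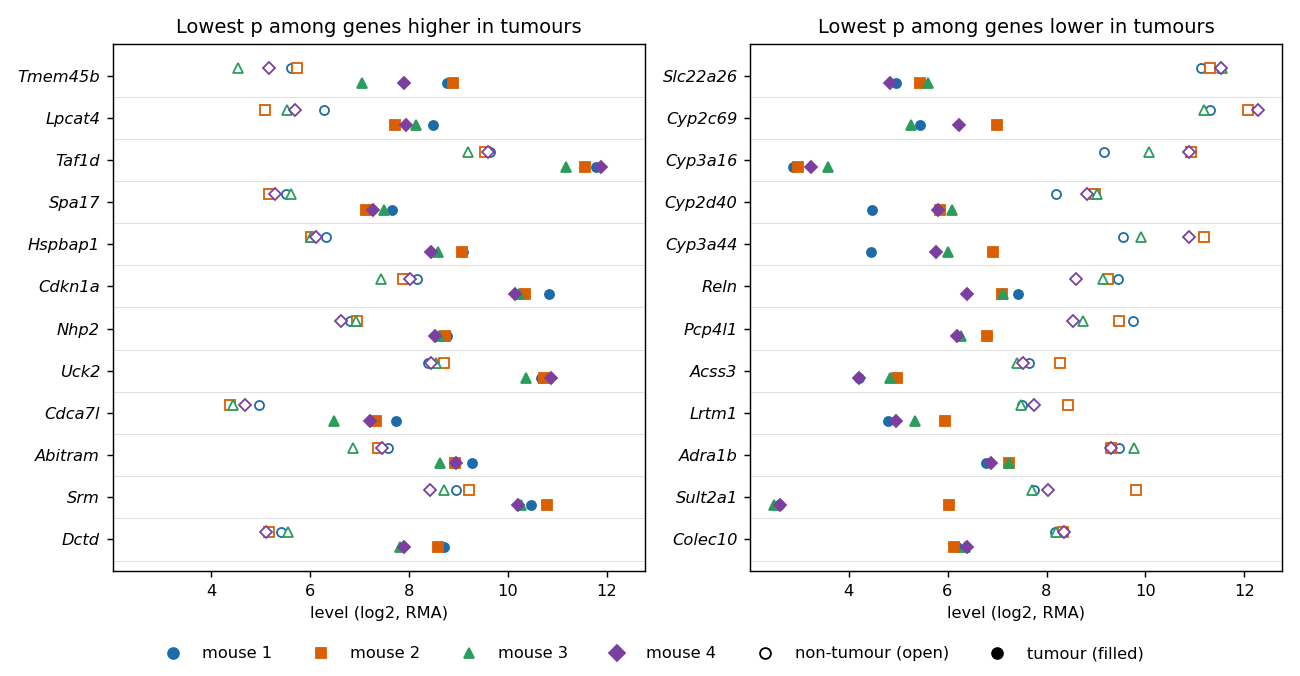
Level (log2, RMA) of the 12 genes of lowest p that rose and the 12 that fell by at least 1, on each of the 8 arrays. Open symbols are non-tumour liver, filled symbols tumours, and colour and shape give the mouse. Tumour 2 is the highest of the tumours for Sult2a1, at 6.03 against 2.50 to 2.62 in the others.

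Genes that make ribosomes rose together. Of 41 tested genes of RNA polymerases I and III and of rRNA processing, 32 rose and 1 fell, against 15% and 12.7% of all genes, and the median change was 0.88. Taf1d, a subunit of the factor that brings RNA polymerase I to the rRNA genes, went from 9.63, 9.55, 9.19 and 9.59 in non-tumour liver to 11.78, 11.55, 11.18 and 11.88 in tumours. The rise of 2.11 had an SE of 0.111 (limma adjusted p = 0.00048). Nhp2, a core protein of the H/ACA particles that guide pseudouridylation, rose by 1.83 (SE 0.108), from 6.63 to 6.95 in non-tumour liver to 8.53 to 8.76 in tumours. Nop56 and Nop58, which sit in the C/D particles that guide rRNA methylation, rose by 1.96 (SE 0.144) and 1.72 (SE 0.128). Ncl and Npm1, the abundant nucleolar proteins nucleolin and nucleophosmin, rose by 1.76 (SE 0.195) and 1.44 (SE 0.178). The median of the list was 0.77, 0.84, 0.83 and 0.79 in mice 1 to 4, so the 4 tumours were alike. The gene that fell was Polr3a, the largest subunit of polymerase III, by 0.42 (change -0.42, SE 0.123, limma adjusted p = 0.0466), and it lost the threshold without mouse 1, 3 or 4. Polr3a lies on chromosome 14, where 35.2% of genes fell.

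Among these genes and those of nucleotide and polyamine synthesis, 3 promoters are shown because they hold the E-box CACGTG that MYC and MAX bind. They are the 3 genes of lowest p among the members that rose whose window holds it. Each window runs from 250 bases before to 50 bases after the start of transcription, from RefSeq on GRCm38.p6, plus strand, 5′ to 3′, with the motif in capitals. Wdr43, a part of the small-subunit processome that rose by 1.17, is at chr17:71615965-71616264. Nop2, an rRNA methyltransferase that rose by 1.41, is at chr6:125131633-125131932. Atic, which carries out the last steps of purine synthesis and rose by 1.27, is at chr1:71556906-71557205.
Wdr43: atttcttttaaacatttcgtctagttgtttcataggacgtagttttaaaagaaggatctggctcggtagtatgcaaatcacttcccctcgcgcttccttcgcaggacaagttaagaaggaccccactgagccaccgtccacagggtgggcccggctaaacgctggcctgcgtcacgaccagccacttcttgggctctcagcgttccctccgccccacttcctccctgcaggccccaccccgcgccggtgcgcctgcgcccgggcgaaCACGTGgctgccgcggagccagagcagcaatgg
Nop2: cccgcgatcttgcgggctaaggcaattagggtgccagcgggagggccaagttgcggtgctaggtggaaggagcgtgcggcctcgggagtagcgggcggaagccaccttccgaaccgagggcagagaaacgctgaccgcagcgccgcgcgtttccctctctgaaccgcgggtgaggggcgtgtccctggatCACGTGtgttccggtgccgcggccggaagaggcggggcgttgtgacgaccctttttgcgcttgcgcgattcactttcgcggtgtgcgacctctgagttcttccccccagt
Atic: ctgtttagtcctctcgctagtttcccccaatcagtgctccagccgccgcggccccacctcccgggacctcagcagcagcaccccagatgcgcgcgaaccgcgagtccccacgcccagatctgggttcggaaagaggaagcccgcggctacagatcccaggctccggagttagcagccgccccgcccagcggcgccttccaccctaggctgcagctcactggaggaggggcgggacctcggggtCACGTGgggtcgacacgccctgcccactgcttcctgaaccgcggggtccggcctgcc
The motif began 18 bases after the start in Wdr43, 60 bases before it in Nop2 and 7 bases before it in Atic.

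CACGTG reads the same on both strands, and it was found in 7.15% of all 300-base RefSeq windows. Of the tested protein-coding genes 9845 had a window, and 11.6% of these held the motif. The share was 14% among genes that rose, 11.4% among genes that did not pass the threshold and 10.1% among genes that fell. A gene counted if any of its windows held the motif, so genes with several windows had more places to hold it. With 1 window per gene the share was 10.2% of all, 13.3% of those that rose, 10% of those not passing and 7.05% of those that fell. It was 16.3% among genes that rose by at least 1 and 6.37% among genes that fell by at least 1. Of the rRNA processing list 6 of 33 genes with a window held it (18.2%), and of the nucleotide list 5 of 27 (18.5%). The other lists searched were below the share of all genes, with 4 of 35 cytosolic (11.4%) and 5 of 51 mitochondrial ribosomal protein genes (9.8%), 2 of 31 mitosis genes (6.45%) and 1 of 16 female-biased genes (6.25%). None (0) of the 6 polyamine genes with a window held it, a list in which under 80% of the genes had a window. A match is a description of the window and shows no binding, and these shares were not tested.

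Ribosomal proteins and the rest of the translation machinery moved the same way. Of 43 tested cytosolic ribosomal protein genes 31 rose and 0 fell (median 0.76), although the number was 19 without mouse 4. Rplp0, a stalk protein of the large subunit, went from 9.44, 8.89, 9.38 and 9.15 to 10.98, 10.52, 10.58 and 10.74 (change 1.49, SE 0.12, limma adjusted p = 0.00143). Rps7 rose by 1.15 (SE 0.113), Rpl32 by 1.19 (SE 0.131) and Rplp1, another stalk protein, by 1.19 (SE 0.17). The median of the list was 0.40 in mouse 3 and 0.86 to 0.95 in the other 3. Of 60 mitochondrial ribosomal protein genes 39 rose and 0 fell (median 0.56), or 22 without mouse 4. Mrps5 and Mrpl13, 1 from each mitochondrial subunit, rose by 1.03 (SE 0.108) and 1.09 (SE 0.121).

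Of 34 translation initiation and elongation factors 15 rose and 0 fell, with a median of 0.37. Eif3e, Eif3h and Eif3d, subunits of the initiation factor eIF3 that recruits the small ribosomal subunit, rose by 1.03, 1.03 and 1.21 (SE 0.101, 0.104 and 0.131). All 3 lie on chromosome 15, where the median change was 0.21 and 31.5% of genes rose. Of 19 aminoacyl-tRNA synthetases 13 rose and 0 fell (median 0.57), among them Vars by 1.14 (SE 0.11) and Lars by 1.14 (SE 0.155), which charge tRNAs with valine and leucine. Without mouse 3 or 4 the number was 7 or 6. Of 15 genes of the CCT and mitochondrial chaperonins, which fold new proteins, 11 rose and 0 fell (median 0.71), or 7 without mouse 4. Trap1, a mitochondrial HSP90, rose by 1.16 (SE 0.121), Cct5 by 1.17 (SE 0.123) and Hspd1, the mitochondrial chaperonin, by 1.09 (SE 0.141). Protein breakdown did not share this: of 29 proteasome subunits 2 rose and 1 fell, and the median was 0.12, with 0 rising without mouse 1, 3 or 4.

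Many genes of nucleotide synthesis rose. Of 29 tested genes of purine and pyrimidine synthesis 18 rose and 0 fell, with a median of 0.72 that lay between 0.59 and 0.94 in the single mice. Uck2, the kinase that salvages uridine and cytidine, went from 8.39, 8.71, 8.54 and 8.44 to 10.66, 10.72, 10.36 and 10.88 (change 2.13, SE 0.136, limma adjusted p = 0.000719). Cad, which encodes the enzyme of the first 3 steps of pyrimidine synthesis, rose by 1.64 (SE 0.114). Ctps, which makes CTP, rose by 1.45 (SE 0.121). Each of these had all 4 tumours above all 4 non-tumour livers. Of 9 polyamine genes 3 rose and 0 fell. Srm, the spermidine synthase, rose by 1.60 (SE 0.108), from 8.96, 9.21, 8.71 and 8.42 to 10.47, 10.79, 10.26 and 10.20. Odc1, the ornithine decarboxylase that starts the pathway, rose by 0.94 (SE 0.156). The serine, glycine, folate and methionine cycle did not move as a list: 2 of 23 rose and 1 fell, or 4 and 2 without mouse 1. Mthfd1l, the mitochondrial enzyme that releases formate for purine synthesis, was 1 of the 2 that rose, by 1.63 (SE 0.174).

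**Figure D2:**
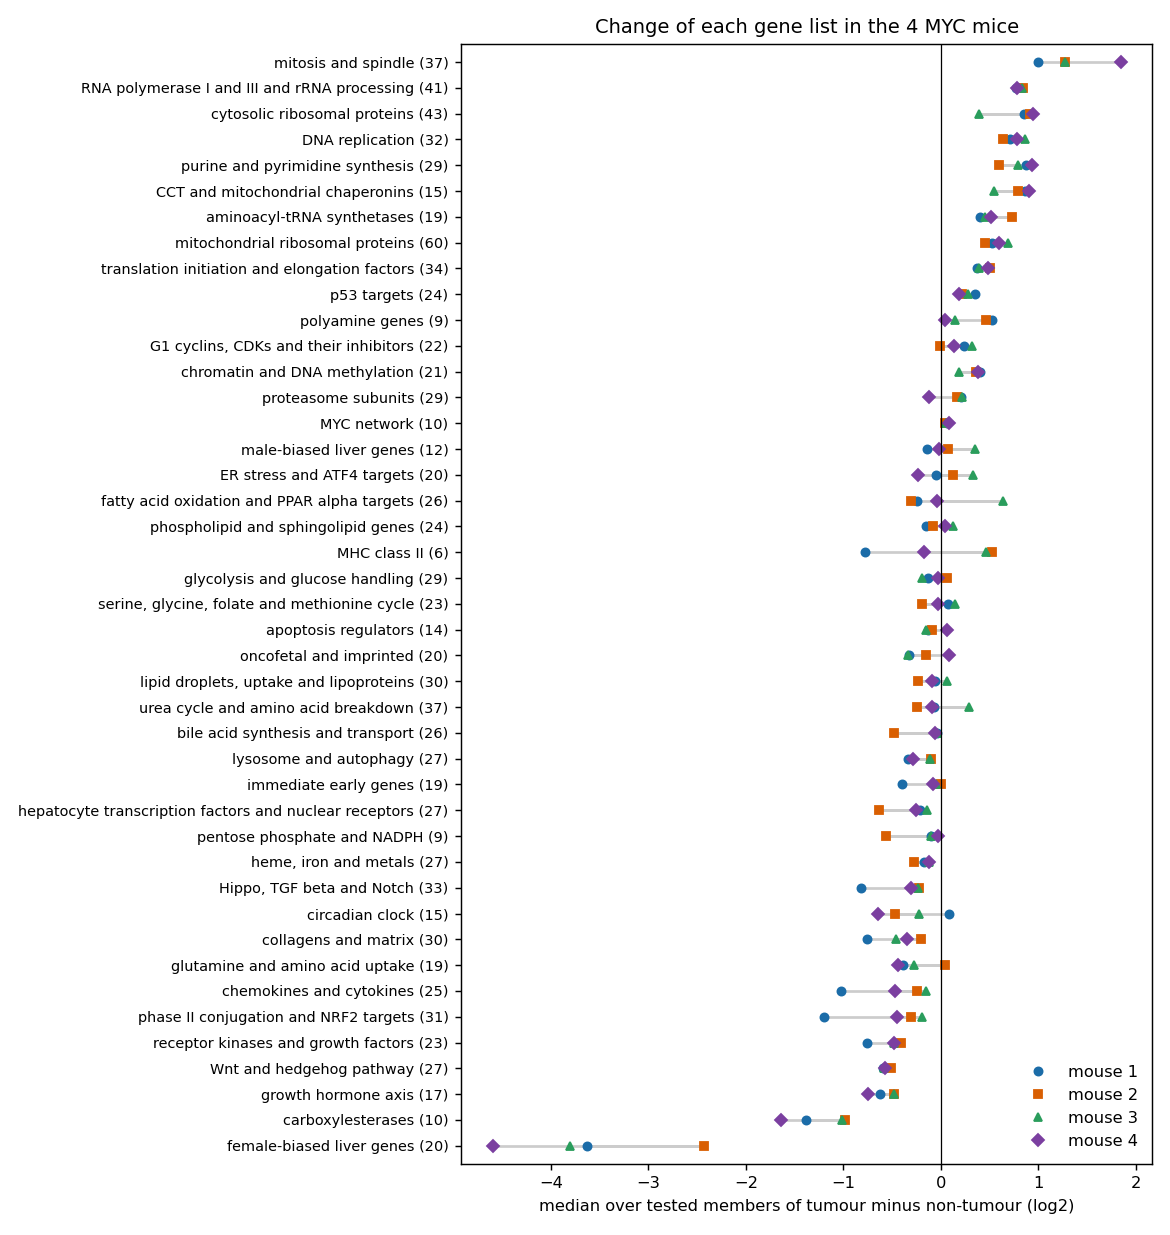
Median change (tumour minus non-tumour, log2) of each gene list in each of the 4 mice, for the lists with at least 5 tested genes other than cell type markers. The number of tested genes is in brackets. Ribosome, replication and mitosis lists lie to the right of 0 in all 4 mice, and the female-biased liver genes lie furthest to the left, at -2.43 in mouse 2 and -4.60 in mouse 4.

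Most mitosis and replication genes rose. Of 37 tested genes of mitosis and the spindle 35 rose and 0 fell, with a median change of 1.34 and 35 without overlap between the groups. The medians were 1, 1.28, 1.27 and 1.85 in mice 1 to 4, so tumour 4 was highest. Ccna2 and Ccnb2, the cyclins of S phase and mitosis, rose by 2.08 (SE 0.152) and 2.39 (SE 0.193). Ccna2 stood at 6.77, 5.62, 5.16 and 6.10 in non-tumour liver and at 8.40, 7.77, 7.26 and 8.56 in tumours. Top2a, the topoisomerase that untangles replicated DNA, rose by 1.59 (SE 0.136). Of 32 tested DNA replication genes 22 rose and 0 fell (median 0.76). Mcm2 and Mcm4, subunits of the replicative helicase, rose by 1.36 (SE 0.122) and 1.32 (SE 0.133).

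Of 22 G1 cyclins, kinases and inhibitors 5 rose and 4 fell, shares of 22.7% and 18.2% that lay near the 15% and 12.7% of all genes; 8 rose without mouse 2 and 2 fell without mouse 4. Cdk4, the kinase that D-type cyclins activate, rose by 0.95 (SE 0.109). Ccne1, cyclin E1, which drives entry into S phase, went from 5.63, 6.20, 5.71 and 5.56 to 8.38, 7.14, 7.92 and 7.44 (change 1.95, SE 0.274). Rbl2, which encodes the pocket protein p130 of resting cells, changed by -0.75 (SE 0.102). Of 24 p53 targets 8 rose (33.3%) and 1 fell (4.17%), with 4 to 5 rising when mouse 1, 2 or 3 was left out. Besides Cdkn1a these included Tnfrsf10b, a death receptor, at 1.89 (SE 0.249), and Gtse1, which is also a cell cycle gene, at 1.12 (SE 0.119). Mdm2, the ubiquitin ligase in the p53 feedback loop, changed by -0.01 (SE 0.157, limma adjusted p = 0.977). Of 14 apoptosis regulators 2 rose and 2 fell, 14.3% each and near the shares of all genes, or 0 and 1 without mouse 4. Xiap, an inhibitor of caspases, changed by -0.89 (SE 0.147). Of 21 chromatin and DNA methylation genes 8 rose (38.1%) and 0 fell, or 5 rose without mouse 1 or 4. Ezh2, the histone H3 methyltransferase of the Polycomb complex, rose by 0.95 (SE 0.108), Prmt1 by 0.97 (SE 0.104) and the methyltransferase Dnmt3b by 1.22 (SE 0.219).

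Changes also followed the chromosome on which a gene lies. Chromosome 14 had the lowest median change, -0.31 over 440 genes, with -0.30, -0.17, -0.42 and -0.32 in mice 1 to 4. On it 35.2% of genes fell and 6.14% rose, against 12.7% and 15% of all genes. The X chromosome had a median of -0.30 over 355 genes, with -0.26, -0.18, -0.36 and -0.30 in the 4 mice, and 27% of its genes fell while 3.1% rose. Chromosome 8 was lower in all 4 mice too, at -0.28, -0.08, -0.15 and -0.31. In the other direction, chromosome 15 had a median of 0.21 over 539 genes, with 0.13, 0.27, 0.40 and 0.11 in mice 1 to 4, and 31.5% of its genes rose while 6.12% fell. Chromosome 16 had a median of 0.18, with 0.19, 0.34, 0.12 and 0.04 in mice 1 to 4.

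Other chromosomes were shifted most in 1 tumour. Of these, chromosomes 3, 9 and 18 were above 0 in all 4 mice. On them 22.3%, 20.8% and 22.7% of genes rose, against 15% of all genes. Chromosome 1 stood at 0.29 in mouse 4 and at -0.02 to 0.06 in the other 3, and chromosome 18 at 0.29 in mouse 2 and at 0.01 to 0.11 in the others. In mouse 1, chromosome 12 stood at 0.21 against -0.04 to 0.07 in the others, chromosome 3 at 0.23 against 0.04 to 0.14 and chromosome 9 at 0.23 against 0.04 to 0.18. In mouse 2, chromosome 13 stood at -0.20 against 0.01 to 0.14. A non-tumour liver compared with the mean of the other 3 gave chromosome medians of only -0.06 to 0.05, over all 20 chromosomes and 4 mice. The SD of the 20 chromosome medians was 0.154 to 0.166 in the tumours and 0.00933 to 0.0206 in that comparison of non-tumour livers. The shifts of chromosomes 14, 15 and X were nearly the same without the genes of the lists described here, at -0.30, 0.20 and -0.31. Among genes in the upper part of levels on the array (above the median level of tested genes) they were larger, at -0.43, 0.41 and -0.38, than among genes below it, at -0.18, 0.02 and -0.23. In the MYC/REG3A mice 1 to 4, chromosome 14 had medians of -0.42, -0.09, -0.19 and -0.05, chromosome 15 of 0.30, 0.16, 0.21 and 0.14, and X of -0.38, -0.07, -0.16 and -0.25. DNA was not analysed here.

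**Figure D3:**
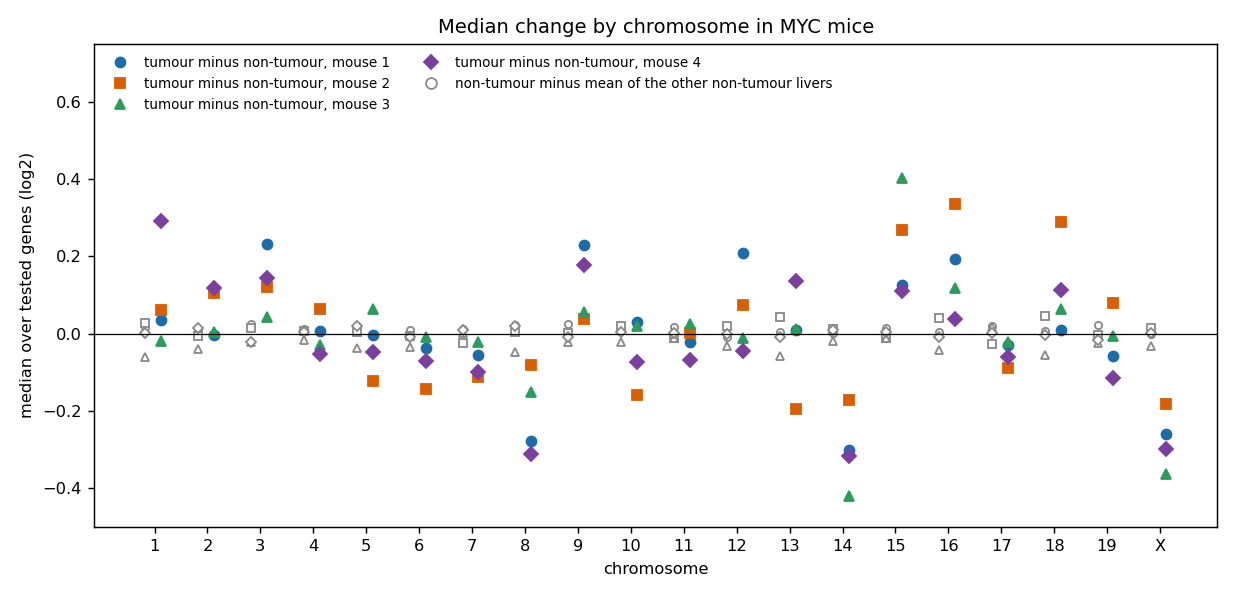
Median change over the tested genes of each chromosome (tumour minus non-tumour, log2; filled symbols, 1 per MYC mouse). Grey open symbols give each non-tumour liver minus the mean of the other 3. Chromosomes 6, 7, 8, 14, 17 and X lie below 0 and chromosomes 3, 9, 15, 16 and 18 above 0 in all 4 tumours. The grey symbols stay within -0.06 and 0.05.

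Some shifts ran along a whole chromosome and others did not. With the genes of a chromosome ordered by position and divided into 8 parts, all 8 parts of chromosome 14 were below 0 in each of the 4 mice. All 8 parts of the X chromosome were below 0 in mice 1, 2 and 4. Chromosome 3 of mouse 1 broke along its length: its first 5 parts had medians of 0.39 to 0.69, and its last 3 had -0.05, -0.20 and -0.37. The X chromosome of mouse 3 also differed along its length: the first 6 parts had medians of -0.60 to -0.30, and the last 2 had -0.03 and 0.04. The last 2 parts, from Tceal9 to the end, had medians of -0.44 to -0.11 in the other 3 mice. On chromosome 8, parts 1 and 8 were at 0.04 and 0.05 in mouse 2, and the other parts and mice were below 0. On chromosome 16, parts 4 to 8 lay between -0.09 and 0.12 in mice 3 and 4, against 0.06 to 0.25 in parts 1 to 3.

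**Figure D4:**
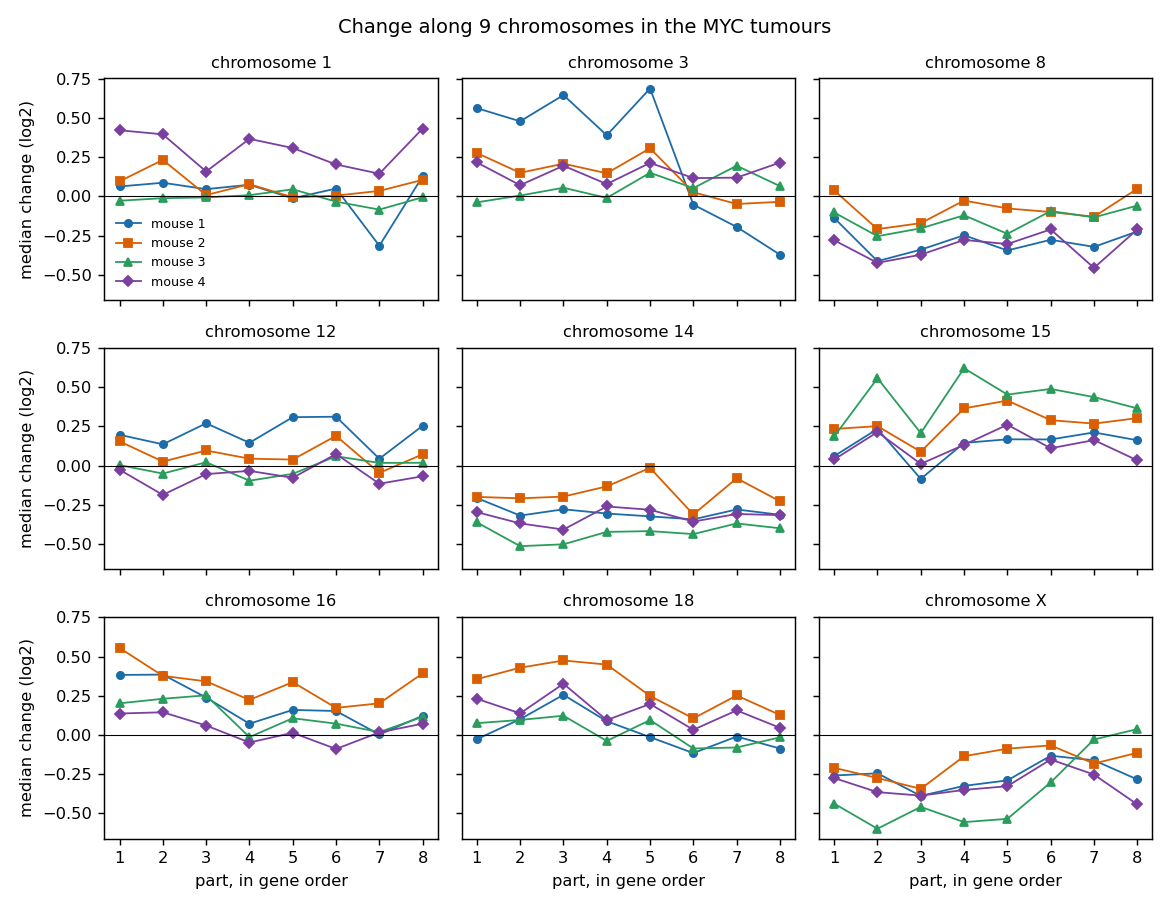
Median change (log2) along chromosomes 1, 3, 8, 12, 14, 15, 16, 18 and X, with the tested genes of each chromosome divided into 8 parts in gene order, in each of the 4 MYC mice. Chromosome 14 is below 0 in all 8 parts and 4 mice, the X chromosome of mouse 3 returns to between -0.03 and 0.04 in its last 2 parts, and chromosome 3 of mouse 1 turns from 0.69 in part 5 to -0.37 in part 8.

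The largest losses were in genes that female liver expresses more than male liver. Of 20 tested female-biased genes 0 rose and 18 fell, against 12.7% of all genes, and the median change was -3.66. Cyp3a16, a cytochrome P450, went from 9.17, 10.92, 10.07 and 10.89 to 2.87, 2.98, 3.59 and 3.24, which is below the lower quartile of every tumour array. The change of -7.09 (SE 0.296, limma adjusted p = 0.000441) is therefore limited by background and is a lower bound on the fall. Sult3a1, a sulfotransferase, was the only other gene to go from above the array median in every non-tumour liver to below the lower quartile in every tumour (change -5.45, SE 0.481). No gene made the reverse move (0 genes). Cyp2c69 changed by -5.72 (SE 0.179) and Cyp3a44 by -4.59 (SE 0.227). The exceptions in the list were Cyp17a1, a steroid hydroxylase, at -1.51, and Abcd2, a peroxisomal fatty acid transporter, at 0.54, neither of which passed the threshold.

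The 4 tumours kept different amounts of these transcripts. Sult2a1, a sulfotransferase of bile acids and steroids, stood at 7.74, 9.80, 7.71 and 8.04 in non-tumour liver and at 2.59, 6.03, 2.50 and 2.62 in tumours. Sult2a2 was at 3.66, 8.26, 4.05 and 4.29 in the tumours, Cyp2b13 at 4.25, 8.10, 4.26 and 3.90 and Cyp2b9 at 8.41, 11, 7.70 and 3.24. Tumour 2 was the highest for all 4 genes. In mouse 2 the median fall of the female-biased list was smallest (median change -2.43). Cyp2b9 (change -4.56, SE 1.08) lost the threshold without mouse 1 or 3, and Cyp2b13 (change -4.28, SE 0.776) lost it without mouse 4. A1bg, a female-biased plasma protein gene, already varied among the non-tumour livers, at 8.07, 12.27, 5.06 and 12.29, and was at 3.97 to 5.46 in the tumours (change -4.86, SE 1.06). It lost the threshold without mouse 2 or 4.

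Male-biased genes showed no common direction, with 3 of 12 up (25%), 2 down (16.7%) and a median of 0.05. The shares of all genes were 15% and 12.7%. Cyp2d9, a male-biased cytochrome P450, rose from 7.37, 6.49, 6.53 and 6.03 to 8.85, 9.22, 8.89 and 8.55 (change 2.27, SE 0.211). Selenbp2, a selenium-binding protein, rose by 1.92 (SE 0.402), although not without mouse 4. Mup3, a major urinary protein, went from 12.63 to 12.78 in non-tumour liver to 6.49, 9.07, 9.65 and 7.64 in tumours (change -4.48, SE 0.487). Nudt7, a peroxisomal hydrolase of coenzyme A, changed by -1.15 (SE 0.117).

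Of 17 genes of the growth hormone axis, which sets this sex bias in liver, 1 rose and 9 fell, with a median of -0.63, and 2 rose without mouse 2. Cux2, a repressor of male-biased genes in female liver, went from 7.54, 8.14, 7.71 and 7.85 to 6.05, 6.74, 6.76 and 6.80 (change -1.22, SE 0.133, limma adjusted p = 0.00258). Igf1, the growth factor that the liver secretes under growth hormone, changed by -0.83 (SE 0.13). Igfbp2, a binding protein for it, was the gene that rose, by 1.4 (SE 0.227). Egfr, the receptor for epidermal growth factor, changed by -0.99 (SE 0.111) and fell in all 4 pairs, although its tumours and non-tumour livers overlapped.

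Of 27 hepatocyte transcription factors and nuclear receptors 7 fell (25.9%) and 2 rose (7.41%), against 12.7% and 15% of all genes. The number that rose was 1 without mouse 2 and 0 without mouse 3 or 4. Onecut1, the hepatocyte factor HNF6, went from 9.71, 9.82, 9.48 and 9.37 to 7.02, 7.92, 7.17 and 6.41 (change -2.47, SE 0.184, limma adjusted p = 0.00113). Esr1, the estrogen receptor alpha, changed by -1.85 (SE 0.227), Tbx3, a T-box factor of the central vein region, by -1.62 (SE 0.173) and Thrb, a thyroid hormone receptor, by -1.09 (SE 0.151). Hnf4a, the general regulator of hepatocyte genes, stood at 11.13, 11.32, 10.79 and 11.11 in non-tumour liver and at 10.83, 10.85, 10.69 and 10.85 in tumours. Its change of -0.28 (SE 0.112, limma adjusted p = 0.108) did not pass. Of 33 genes of the Hippo, TGF beta and Notch pathways 2 rose and 12 fell (median -0.31), with 0 rising without mouse 1 and 1 without mouse 4. Of 23 receptor kinases and growth factors 1 rose and 10 fell (median -0.54), or 5 falling without mouse 3 and 6 without mouse 4.

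Targets and regulators of Wnt signalling around the central vein were lower. Of 27 tested Wnt and hedgehog genes 0 rose and 15 fell, with a median of -0.56 that was nearly equal in the 4 mice (-0.59, -0.51, -0.58 and -0.57). Rspo3, which strengthens Wnt signals and comes from endothelial cells of the central vein, went from 8.05, 7.35, 8.01 and 7.39 to 5.82, 5.34, 5.76 and 5.64 (change -2.06, SE 0.127, limma adjusted p = 0.00066). The Wnt targets Notum and Nkd1, both feedback inhibitors, changed by -1.99 (SE 0.176) and -1.09 (SE 0.104). Hhip, an inhibitor of hedgehog, changed by -1.93 (SE 0.173). Lgr5, a receptor for R-spondins that was singled out after its values were seen, changed by -2.98 (SE 0.451), with tumours at 6.11, 3.92, 5.17 and 4.54. Glul, the glutamine synthetase of hepatocytes next to the central vein, went from 11.87, 11.64, 11.76 and 11.98 to 10.28, 8.56, 10.57 and 10.20 (change -1.91, SE 0.293). Slc1a2, a glutamate transporter of the same cells, changed by -2.20 (SE 0.206). Endothelial markers fell in the same tumours, and their part in the falls of endothelial genes such as Rspo3 was not tested.

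Genes with a high signal (a group mean of at least 11) numbered 390, without predicted gene models and some small RNAs. Against 15% and 12.7% of all genes tested, 68 of these 390 genes rose and 88 fell. The largest falls among them, after Slc22a26, Cyp2c69, Cyp2b9 and Mup3, were Ugt3a2, a UDP-glycosyltransferase (change -3.32, SE 0.42), and Saa2, an acute-phase apolipoprotein (change -3.05, SE 0.366). Saa2 ranged from 9.43 to 12.85 in non-tumour liver and from 5.11 to 9.55 in tumours, and fell in every pair. The cytochromes P450 Cyp2a4, Cyp1a2, Cyp2a12 and Cyp2c37 changed by -2.91, -2.70, -2.51 and -2.32 (SE 0.344, 0.411, 0.276 and 0.201). The rises among them were led by Taf1d and by small non-coding RNA hosts and components, Scarna17 at 1.66 (SE 0.242) and Terc, the RNA of telomerase, at 1.60 (SE 0.214). Lgals1, a galactoside-binding lectin, went from 10.59, 9.75, 10.02 and 9.74 to 11.69, 11.88, 11.64 and 11.11 (change 1.56, SE 0.178). Ybx3, a cold-shock RNA-binding protein, rose by 1.54 (SE 0.127) and Snu13, a protein of both spliceosome and C/D particles, by 1.25 (SE 0.112). Car3, a carbonic anhydrase, rose by 1.17 (SE 0.338, limma adjusted p = 0.0445), with overlapping groups, and did not pass without mouse 1, 3 or 4.

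Most carboxylesterases fell, and phase II enzymes did so in smaller part. Of 10 tested carboxylesterases, which split esters of drugs and lipids, 0 rose and 8 fell (median -1.46). Ces1d went from 9.31, 9.49, 9.34 and 8.70 to 6.92, 8.37, 7.26 and 6.84 (change -1.86, SE 0.209). Ces1b and Ces1c changed by -1.84 (SE 0.247) and -0.94 (SE 0.156). Ces1f varied among tumours, at 4.35, 8.93, 6.71 and 4.15, with tumour 2 again highest (change -4.12, SE 0.765). Cyp2c54, an arachidonic acid epoxygenase, was at 4.5, 7.81, 6.20 and 7.54 in the tumours (change -4.06, SE 0.655). Of 31 phase II and NRF2 genes 0 rose and 10 fell (median -0.50), with 6 falling without mouse 1 and 4 without mouse 4. The median of that list was -1.20 in mouse 1 and -0.19 in mouse 3, and 21 of its genes did not pass the threshold. Ugt2a3 and Ugt2b1, UDP-glucuronosyltransferases, changed by -1.65 (SE 0.155) and -1.78 (SE 0.253), and Gstt1, a glutathione transferase, by -1.15 (SE 0.138).

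The lists of central metabolism were near or below the shares of all genes (15% up and 12.7% down), apart from the falls in the urea cycle list. Of 29 glycolysis genes 2 rose and 1 fell, of 26 fatty acid oxidation genes 0 rose and 4 fell, and of 37 urea cycle and amino acid genes 5 rose (13.5%) and 7 fell (18.9%). Without mouse 3 the fatty acid oxidation genes that fell numbered 7, and without mouse 2 there were 2 that rose. Without mouse 4 the urea cycle list had 2 up and 1 down. The median of the fatty acid oxidation list was 0.64 in mouse 3 and -0.31 to -0.04 in the other 3. Acot3, a peroxisomal thioesterase, changed by -2.27 (SE 0.241). Asns, the asparagine synthetase that ATF4 induces, differed among tumours, going from 6.98, 5.83, 6.59 and 6.16 to 10.24, 9.76, 8.68 and 7.15 (change 2.57, SE 0.448, limma adjusted p = 0.00908). Slc7a1, a transporter of arginine and ornithine, rose by 1.21 (SE 0.211).

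Of 30 genes of lipid droplets, uptake and lipoproteins 6 rose and 6 fell, 20% each against 15% and 12.7% of all genes. Lpl, the lipoprotein lipase that adult liver largely lacks, went from 9.47, 7.12, 8.47 and 8.77 to 10.16, 10.14, 10.22 and 10.29 (change 1.74, SE 0.341, limma adjusted p = 0.013). The tumours were close together and the non-tumour livers were not, and the rise did not pass without mouse 3 or 4. Without either of those mice 0 genes of this list rose, and without mouse 4 the number that fell was 3. Pnpla3, a lipase of lipid droplets, and Lipg, the endothelial lipase, changed by -1.73 (SE 0.336) and -1.73 (SE 0.309). In the phospholipid and sphingolipid list 6 of 24 rose and 6 fell, 25% each, and 2 or 3 fell without any 1 mouse. Lpcat4 led the rises, from 6.28, 5.08, 5.53 and 5.70 to 8.48, 7.72, 8.15 and 7.94. Smpdl3b, a phosphodiesterase of sphingolipids, rose by 2.83 (SE 0.375) and Agpat5, an acyltransferase, by 1.12 (SE 0.107).

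Of 27 heme, iron and metal genes 5 rose and 5 fell, 18.5% each, near the 15% and 12.7% of all genes, and without mouse 4 the counts were 1 and 1. Trpm6, a magnesium channel, rose by 3.08 (SE 0.451), with tumours at 9.15, 5.79, 7.87 and 8.34 and non-tumour livers at 4.38 to 5.2. Tfrc, the transferrin receptor, went from 6.89, 7, 8.78 and 6.34 to 8.40, 9.61, 9.23 and 8.27 (change 1.62, SE 0.321, limma adjusted p = 0.0134), although not past the threshold without mouse 4. Hamp, which encodes the iron hormone hepcidin and was singled out after its values were seen, was at 12.71, 12.79, 4.08 and 12.60 in non-tumour liver and at 12.31, 9.14, 3.90 and 12.39 in tumours. Mouse 3 thus had the lowest Hamp in both tissues and the highest non-tumour Tfrc, and tumour 2, with Hamp at 9.14 against 12.79 in its non-tumour liver, had the highest Tfrc. The change of Hamp over the 4 mice was -1.11 (SE 0.581, limma adjusted p = 0.199). Slc39a5, a zinc transporter, rose in 3 mice, to 8.90, 9.66 and 8.61 from 5.26 to 5.54, and not in mouse 1, where it was 5.88 in non-tumour liver and 5.28 in the tumour. Its mean change of 2.58 (SE 0.746, limma adjusted p = 0.044) did not pass without mouse 2, 3 or 4.

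Many markers of sinusoidal endothelial, stellate, Kupffer and B cells were lower in the tumours, and those of some other cell types were not. Of all genes tested, 15% rose and 12.7% fell. In dissected tissue, fewer cells of a type and less RNA per cell cannot be told apart. Of 14 tested sinusoidal endothelial markers 0 rose and 12 fell (median -1.03), and their summed level was 12.56 to 13.32 in non-tumour liver and 11.80 to 12.04 in tumours. Tek, the angiopoietin receptor, went from 7.70, 7.69, 7.75 and 7.88 to 6.62, 6.67, 6.57 and 6.50 (change -1.17, SE 0.114). F8, coagulation factor VIII, and Clec4g, a lectin of sinusoidal cells, changed by -1.02 (SE 0.117) and -1.67 (SE 0.251). Lyve1, the hyaluronan receptor, was an exception at 0.09 (SE 0.104, limma adjusted p = 0.565). Of 12 markers of vascular endothelium in general, 1 rose and 1 fell (8.33% each, under the shares of all genes), or 3 fell without mouse 2. The riser was Esm1, a proteoglycan of endothelial tip cells, which went from 5.18, 5.69, 5.82 and 6.42 to 7.14, 9.17, 7.69 and 8.96 (change 2.46, SE 0.269, limma adjusted p = 0.00258).

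Of 16 stellate cell and fibroblast markers 0 rose and 10 fell (median -1.05), with summed levels of 12.75 to 13.42 in non-tumour liver and 11.70 to 12.30 in tumours. Ecm1, a matrix protein that holds TGF beta latent, went from 10.72, 10.62, 10.57 and 10.27 to 8.69, 8.62, 8.73 and 8.51 (change -1.91, SE 0.109, limma adjusted p = 0.000522). Tcf21, a transcription factor of quiescent stellate cells, changed by -1.72 (SE 0.147), Lrat, which stores vitamin A, by -1.37 (SE 0.16) and the proteoglycan Dcn by -1.38 (SE 0.139). Acta2, the smooth muscle actin of activated stellate cells, changed by 0.43 (SE 0.16, limma adjusted p = 0.0894). Hgf, the hepatocyte growth factor that stellate cells secrete, went from 8.97, 8.46, 8.25 and 8.54 to 6.95, 6.65, 6.36 and 6.43 (change -1.96, SE 0.11). Of 30 collagen and matrix genes 0 rose and 10 fell (33.3%, against 12.7% of all genes), or 6 without mouse 1 or 3. Among TGF beta genes, Inhba, the activin subunit, and Tgfbr3, betaglycan, changed by -1.99 (SE 0.119) and -1.44 (SE 0.134). That Hgf, Dcn and Tgfbr3 fell together with stellate cell markers is a measurement, and the part of cell number in it was not tested.

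Of 19 Kupffer cell and macrophage markers 0 rose and 10 fell, against 15% and 12.7% of all genes (median -0.70). The other 9 did not pass the threshold, and the changes within the list ranged from -2.33 to 1.47. Clec4f and Timd4, which mark resident Kupffer cells, changed by -1.85 (SE 0.145) and -1.76 (SE 0.148), Folr2 by -2.33 (SE 0.235) and the complement receptor Vsig4 by -1.77 (SE 0.236). Clec4f stood at 9.67, 8.06, 8.94 and 9.55 in non-tumour liver and at 7.69, 6.00, 7.55 and 7.57 in tumours, so mouse 2 was lowest in both. The summed level overlapped between groups, at 12.49 to 14 and 12.31 to 12.84, and in mouse 2 it was 12.49 and 12.48. Of 8 B and plasma cell markers 0 rose and 4 fell (50%), or 2 without mouse 1, 2 or 4. Ighm, the immunoglobulin M heavy chain, went from 11.58, 10.80, 10.80 and 9.62 to 9.20, 8.11, 8.81 and 8.20 (change -2.12, SE 0.209), and Jchain, which links immunoglobulins, changed by -2.74 (SE 0.497). Of 16 T and NK cell markers listed, 7 were too low to test and 2 had no row. Of the 7 tested, 0 rose and 0 fell by limma, and at an unadjusted p under 0.05 the counts were 0 and 0 as well. Their median change was -0.18, with -0.67 to 0.34 in the single mice. Of 25 chemokines and cytokines 0 rose and 7 fell (28%), or 3 without mouse 1 or 4. Cxcl13, which attracts B cells, changed by -3.09 (SE 0.347), from 9.92, 8.33, 11.12 and 10.81 to 6.79, 4.82, 9.41 and 6.81. Cxcl12, made by endothelial and stromal cells, changed by -1.18 (SE 0.153). Of 9 bile duct and progenitor markers 0 rose and 4 fell (44.4%), or 2 without mouse 2 or 3. Epcam, the adhesion molecule of bile duct cells, changed by -1.15 (SE 0.231). The summed level of that list nevertheless was 10.39, 9.26, 9.55 and 9.24 in non-tumour liver and 8.94, 10.80, 10.73 and 9.86 in tumours, higher in the tumours of mice 2 to 4. Its member with the largest rise, Anxa13, an annexin singled out after its values were seen, changed by 2.44 (SE 0.89, limma adjusted p = 0.087). Of 6 dendritic cell markers 1 rose and 1 fell (16.7% each, near the 15% and 12.7% of all genes), or 2 fell without mouse 2. Their summed level was 9.47 to 9.82 in non-tumour liver and 10 to 10.13 in tumours. The riser, Cd209a, changed by 0.74 in the row used here and by -0.66 in another row of the gene. Of 7 mesothelial markers 0 rose and 1 fell (14.3%, near the share of all genes), or 3 fell without mouse 2. Their summed level, in which the brightest members weigh most, was higher in the tumour of every mouse, at 10.45 to 11.75 and 11.60 to 12.08. The median change of the list was nevertheless -0.31. Its members include the keratins Krt8 and Krt18, and which members carried the sum was not examined. Of 4 adipocyte markers 2 rose, and 0 did without mouse 3 or 4, with summed levels of 9.29 to 10.63 and 10.29 to 12.44.

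**Figure D5:**
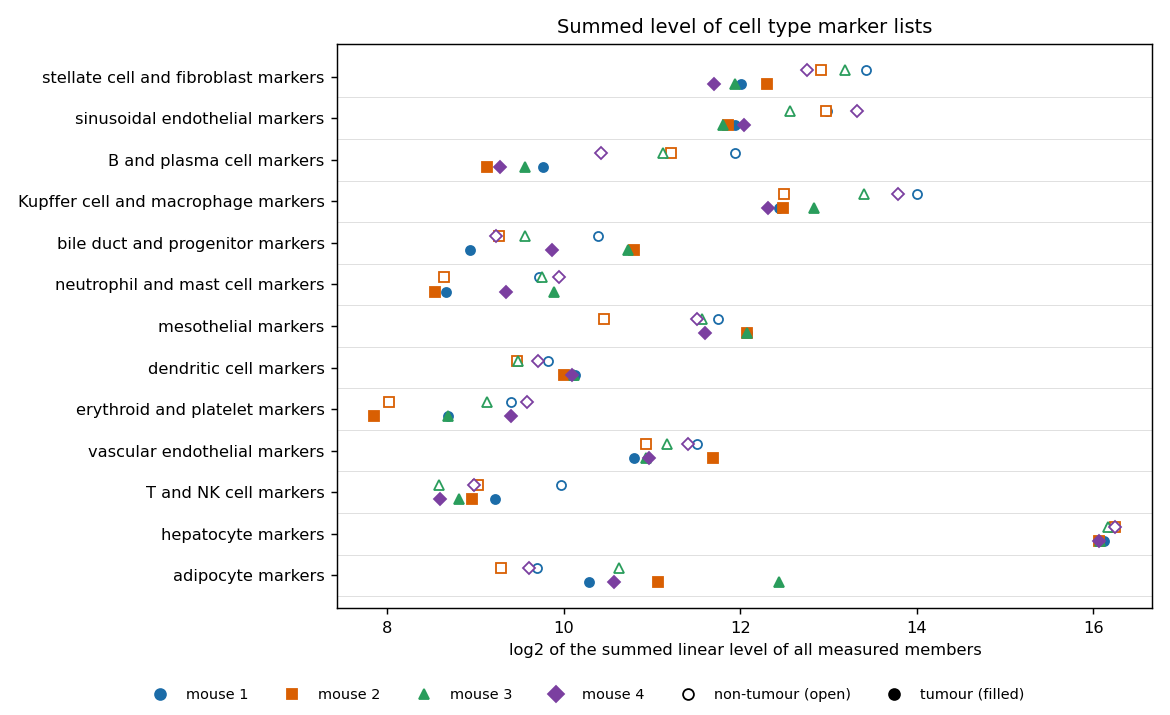
Summed level of each cell type marker list on each of the 8 arrays (log2 of the sum of linear values of all measured members). The brightest members weigh most in such a sum. Open symbols are non-tumour liver and filled symbols tumours. Sinusoidal endothelial, stellate cell and B cell lists are lower in all 4 tumours than in any non-tumour liver, and the hepatocyte list is at 16.17 to 16.25 in non-tumour liver and 16.06 to 16.12 in tumours.

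The tumours varied more among themselves than the non-tumour livers did. The median SD of a gene over 4 mice was 0.206 in tumours and 0.171 in non-tumour liver, and 59.5% of genes had the larger SD in tumours. Correlations of levels across genes were 0.953 to 0.968 between tumours and 0.968 to 0.976 between non-tumour livers. The changes of 2 mice correlated across genes at 0.571 (mice 1 and 2) to 0.741 (mice 1 and 4). These values are across genes, which are not independent replicates. On the second principal component, with 10.8% of the variance, tumour 2 stood at 36 and the other tumours at -14.8 to -6.83. Igf2bp3, which binds mRNAs and is mostly silent in adult tissue, was at 9.60, 7.53, 6.66 and 5.63 in the tumours and 4.40 to 4.75 in non-tumour liver (change 2.76, SE 0.617), and did not pass without mouse 2 or 3.

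The changes in MYC mice were then set against those in the 4 MYC/REG3A mice, in a fit over all 16 arrays. By limma, 1 gene of 13023 (0.00768%) differed in its change between the genotypes, and 745 genes had an unadjusted p under 0.05. Of the 3604 genes that changed in MYC mice, 3542 had a change of the same sign in MYC/REG3A mice. The gene that differed was Trim43c, a gene of the tripartite motif family with near-identical neighbours in its family. It rose by 1.91, 2.28, 1.83 and 2.50 in MYC mice 1 to 4 and by 0.61, 0.06, 0.28 and 0.07 in the MYC/REG3A mice. The difference was 1.87 (SE 0.198, limma adjusted p = 0.0381). Trim43c entered the test only through the 4 MYC tumours, since it lay below the array median in all 4 MYC non-tumour livers, so its difference is given as a description. In a fit over all 22180 genes with a row, chosen after seeing the data, the difference of Trim43c between genotypes had a limma adjusted p of 0.0634, and 0 genes passed. The changes of the 2 sets of mice did not overlap, and leaving out any MYC mouse, or MYC/REG3A mouse 2 or 4, left 0 genes past the threshold. The SD of the changes over all genes was 0.681, 0.333, 0.656 and 0.426 in MYC/REG3A mice 1 to 4 and 0.626 to 0.73 in the 4 MYC mice.

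The next lowest p-values were those of Mme and Lpcat4, which did not pass. Mme, the cell-surface peptidase neprilysin, changed by -3.02, -3.52, -2.59 and -3.71 in the MYC mice. In the MYC/REG3A mice it changed by 1, -0.53, -0.73 and 0.69 (difference -3.32, SE 0.407, limma adjusted p = 0.0727). Lpcat4 rose by 2.20, 2.63, 2.62 and 2.24 in the MYC mice and changed by 1.21, 0.24, 0.69 and 0.16 in the others (difference 1.85, SE 0.24, limma adjusted p = 0.0787). For both genes the 4 MYC mice lay outside the range of the 4 MYC/REG3A mice.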

How the data were processed

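Per the submitters' processing notes, the authors made the deposited log2 values by RMA in Affymetrix Expression Console 1.4.1. Its settings are not given in the sources used here, nor is the logarithm's base, which was inferred from the values. Detection calls were not used, and precision was limited by the number of arrays and by variation between mice. Of 41345 rows, 23521 had 1 gene symbol in the platform annotation, 1814 several and 16010 none; 23328 of the first matched RefSeq (GRCm38.p6) by Entrez ID. The row of highest mean stood for each of 22180 genes, of which 1082 had several rows. Genes above the array median on at least 4 of the 8 arrays (13023) were tested. Of 275 changed genes with another row, 55 had a row of opposite sign.

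Levels were fitted by lmFit and eBayes (limma 3.58.1, R 4.3.3) with a term for each mouse, tests 2-sided and p-values adjusted by Benjamini-Hochberg. Same-numbered samples came from 1 mouse; their deviations from the group means correlated at 0.106, 0.1, 0.136 and 0.234. An exact permutation test over 4 pairs cannot go below p = 0.125 and was not used. The genotype difference was an interaction over all 16 arrays. The 56 gene lists held 1362 genes, of which 1142 were tested, 96 were too low and 124 had no row; they are described by counts and medians. The members and lists were chosen with earlier results of these data known. Named genes were the 12 of lowest p in each direction among changes of at least 1, up to 4 per direction in a list, those of largest SD over mice, highest signal or largest genotype difference, and fixed genes such as Myc; exceptions are marked. Promoter shares cover 9845 of 11867 tested coding genes, without chromosome 18. In simulated data of 13023 genes, 50 genes each were changed by 0.5, 1, 2 and 3 (log2). This paired comparison recovered 4%, 60%, 82% and 92% of them, with 3 false calls. Far fewer genes changed in the simulation than in the mice, which makes the adjusted threshold stricter. These rates therefore cannot give the recovery in the mice. Alternatives changed the array set, block, filter, centring, row choice and prior, and left out each mouse.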

Additional observations from a re-analysis of the deposited data

Results flagged for a closer look

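In groups of 4, a sample was singled out where it stood far from the other 3 relative to the range of the group. This was checked in 314 groups of the genes named, and 15 met it. Chance gives about 1 in 20, so the number that met it is near what chance alone gives. No explanation was tested.

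Tumour 2 stood apart most often. It was highest for Sult2a1 (6.03 against at most 2.62), Sult2a2 (8.26 against at most 4.29) and Cyp2b13 (8.10 against at most 4.26), all female-biased liver genes. It was lowest for the Kupffer cell markers Clec4f (6.00) and Vsig4 (7.91). Non-tumour liver 2 was highest for Sult2a1 (9.80), Esr1 (10.10) and Ugt2b1 (11.83), and lowest for Timd4 (6.72). Non-tumour liver 3 was lowest for Hamp (4.08 against 12.60 to 12.79) and for Rbl2 (7.91). Tumour 3 was lowest for Hnf4a (10.69) and tumour 1 for Cux2 (6.05). Non-tumour liver 1 was highest for Prmt1 (5.37) and Vars (7.71).

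The tumour change of Trim43c was 1.87 higher in MYC than in MYC/REG3A mice, past the threshold in a limma test of the difference over the genes selected by level in MYC arrays. It entered that test only through the MYC tumours and did not pass over all genes with a row.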

How the results depend on the processing

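The count of changed genes was 3604. It was 4431 with all 16 arrays, 3432 without the filter on low values and 3606 with arrays re-centred. Leaving out each mouse in turn gave 1716 to 3167 genes. Without the mouse as a block the count was 3729, of which 3271 were shared with the blocked fit. The genotype difference found 1 gene with the block, 0 without it, 0 over all 22180 genes with a row (an alternative chosen after seeing the data), and 0 to 5 genes when a mouse of either genotype was left out. Re-centring gave 1823 higher and 1783 lower against 1948 and 1656. Of 157 genes followed, 2 lost the threshold without the block and 11 without mouse 4, and the cause was not tested. Leaving out 1 mouse took 3 changes that had not passed the threshold across 0: the change of Afp ranged from -0.0445 (without mouse 1) to 0.2945, the change of Xist from -0.2022 to 0.0492 (without mouse 3) and the change of Mdm2 from -0.1387 to 0.1113 (without mouse 4), with 0.0728 without mouse 2. Without a detection call, falls to background are lower bounds.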
